A study of Mus musculus with 4 samples.

Results

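DNA methylation in mouse ESCs rests on a small set of writers, erasers and cofactors, and 10 of their genes were followed here after knockdown of Cnot1: Dnmt1, Uhrf1, Dnmt3a, Dnmt3b, Dnmt3l, Tet1, Tet2, Tet3, Tdg and Zfp57. The rule that picked them uses their known role and no measured value, although it was written with earlier results of these data known. All 10 were found among the 50559 genes listed and passed the filter on low counts. RNA-seq was performed on E14 ESCs, a pluripotent mouse line grown from early embryos, transfected with non-targeting siRNA (siNT) or with siRNA against Cnot1 (siCnot1). Each group had 2 libraries from independent biological replicates, so that 4 libraries were compared. Both groups received 150 nM siRNA by lipofection, were grown on gelatin with serum replacement and LIF, and were collected after 48 h. Per the study's methods its ESCs carry a tdTomato reporter under the MERVL promoter, and which of the siRNAs against Cnot1 was used for these libraries is not given in the sources used here. DNA methylation itself was not measured in these libraries.

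DNMT1 copies methylation to the new strand after replication, and UHRF1 brings it to hemimethylated CpG sites. DNMT3A and DNMT3B methylate new sites, with DNMT3L as a cofactor that has no catalytic activity of its own. The TET enzymes oxidize 5-methylcytosine, TDG excises the oxidized bases for repair, and ZFP57 is a KRAB zinc finger protein that keeps methylation at imprinted loci. CNOT1 is the scaffold of CCR4-NOT, the main deadenylase complex of the cell, which shortens the poly(A) tails of mRNAs.

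Library totals lay between 32135824 and 32557440 counts. Cnot1 fell from 913 and 986 normalized CPM in siNT to 185 and 192 in siCnot1, 19.8% of the control level. Markers were counted as risen or fallen at an adjusted p under 0.05 with edgeR. By this test 14.7% of all genes were lower and 15.0% higher. ESC markers were high in all libraries, with a summed level of 6919 to 7265 normalized CPM in siNT and 5740 to 6010 in siCnot1, and 8 of 10 fell (median log2 fold change -0.23). Of 8 markers of 2-cell-like cells, 7 rose and none fell, and their sum went from 72.2 to 77.7 CPM in siNT to 195 to 196 CPM in siCnot1. Primitive endoderm markers rose in 2 of 6 tested (sums of 12.6 to 14.8 CPM against 22.1 to 22.9). Fibroblast markers rose in 2 of 4 tested (17.0 to 20.3 CPM against 25.1 to 29.1), with Col3a1 and Dcn at 0 counts in every library. Trophoblast markers fell in 1 of 6 tested (27.4 to 28.9 CPM against 24.1 to 28.3), and markers of primed epiblast and early differentiation in 2 of 6 (49.4 to 50.5 CPM against 41.1 to 42.2). The part of these markers in the values below was not tested, and in bulk RNA fewer cells of a type and less RNA per cell cannot be told apart.

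Of the 10 genes, 7 were lower in siCnot1 at an adjusted p under 0.05 (edgeR's quasi-likelihood test, Benjamini-Hochberg adjustment over 18144 genes): Dnmt1, all 3 DNMT3 genes and all 3 TET genes. Their falls were small, from 13.6% to 22.8%. The test called 14.7% of all genes lower. Among the 7747 genes expressed at least as highly as the lowest of the 10, a mean of 19.4 normalized CPM, it called 26.7% lower. The share called higher was not counted within this expression range. None of the 10 was called higher by edgeR with TMM scaling after the main filter on low counts, against 15.0% of all genes. None was called higher with the replicate block or by DESeq2 either. Zfp57 was higher at an unadjusted p under 0.05, and was called higher by limma-voom and by edgeR with upper-quartile scaling, library totals or a filter of 1 CPM. In every library of siCnot1, 8 of the 10 were below both siNT libraries, which held for 31.2% of all genes, and 1 (Zfp57) was above them, which held for 32.7%. At the thresholds used in the study, an unadjusted p of at most 0.05 and a log2 change of at least 1 in size, none of the 10 passed with edgeR or DESeq2, and by that rule 1.80% of all genes were lower and 6.18% higher with edgeR. The median log2 fold change was -0.22 over the 10 genes, -0.054 over the 7747 genes of that expression range and 0.0084 over all genes tested.

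**Figure D1:**
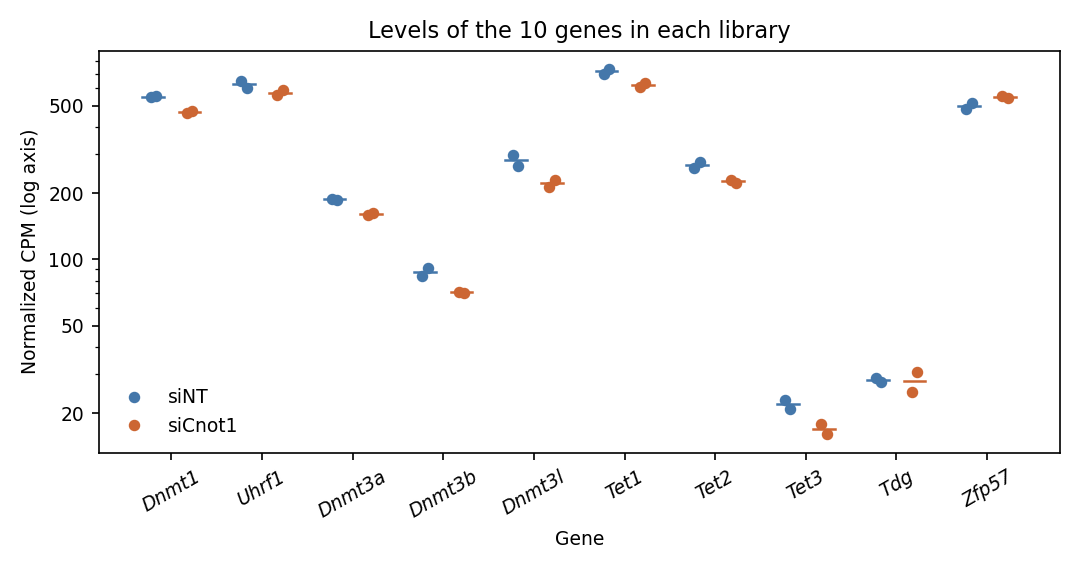
Normalized CPM (log axis) of each gene in each library, with siNT in blue, siCnot1 in orange and a short line at the mean of each group's 2 libraries. The groups of Dnmt1, Uhrf1, the DNMT3 genes and the TET genes do not overlap and siCnot1 is lower, Tdg overlaps, and Zfp57 is higher in both siCnot1 libraries.

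Maintenance methylation was examined first. Dnmt1 (chromosome 9, 20818501 to 20871184, minus strand) was at 546 and 551 normalized CPM in siNT and at 461 and 473 in siCnot1. The groups were well apart, with replicates within a few percent of each other. Dnmt1 fell by 14.8% (log2 fold change -0.23, SE 0.0532, adjusted p = 0.00189). Its partner Uhrf1 (chromosome 17, 56610337 to 56630486, plus strand) was at 646 and 603 CPM in siNT and at 556 and 590 in siCnot1. These groups did not overlap, yet the gap between them was smaller than the spread within either. The log2 fold change of Uhrf1 was -0.12 (SE 0.0559, 95% interval -0.24 to -0.0069), and its adjusted p of 0.104 missed the threshold.

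The de novo methyltransferases and their cofactor fell together. Dnmt3a (chromosome 12, 3851559 to 3964443, plus strand) was at 189 and 186 CPM in siNT and 160 and 162 in siCnot1, a log2 fold change of -0.22 (SE 0.0575, adjusted p = 0.00562). Dnmt3b (chromosome 2, 153491332 to 153529650, plus strand) was at 83.7 and 91.6 CPM against 70.9 and 70.4, a log2 fold change of -0.31 (SE 0.0702, adjusted p = 0.00159). Dnmt3l, the cofactor (chromosome 10, 77878121 to 77899456, plus strand), was at 298 and 266 CPM against 214 and 229. In all 3 genes both siCnot1 libraries were below both siNT libraries. Dnmt3l had the smallest adjusted p of the 10 genes, 0.000140, with a log2 fold change of -0.35 (SE 0.0621), a fall of 21.6%.

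The TET dioxygenases also fell. Tet1 (chromosome 10, 62640349 to 62723242, minus strand), the TET gene with the most reads in these cells, was at 698 and 734 CPM in siNT and at 606 and 631 in siCnot1, a fall of 13.6% (log2 fold change -0.21, SE 0.0540, adjusted p = 0.00444). Tet2 (chromosome 3, 133169438 to 133250882, minus strand) was at 261 and 277 CPM against 230 and 223, a log2 fold change of -0.25 (SE 0.0571, adjusted p = 0.00189). Tet3 (chromosome 6, 83339355 to 83434190, minus strand) was the least expressed of the 10 genes, at 22.9 and 20.9 CPM against 17.8 and 16.0. None of the TET genes overlapped between the groups. The log2 fold change of Tet3 was the most negative of the 10 and also the least precise (-0.37, SE 0.112, 95% interval -0.60 to -0.14, adjusted p = 0.0137).

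Tdg, the glycosylase that acts after the TET enzymes (chromosome 10, 82465649 to 82486633, plus strand), was at 29.0 and 27.6 CPM in siNT and at 24.9 and 30.8 in siCnot1. The siCnot1 libraries lay on either side of the siNT libraries. Its log2 fold change was -0.02 (SE 0.108, 95% interval -0.24 to 0.20, adjusted p = 0.911), so that a fall of the size seen in Dnmt1 was within its interval. The sign was positive under scaling by library totals (0.085), without siNT replicate 1 (0.010) and without siCnot1 replicate 1 (0.12).

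Counts on Tdg also depend on how reads of near-identical copies were assigned. Of the 75-base stretches in its longest coding transcript (GENCODE M21), 47.2% also occur in transcripts of other genes, among them the pseudogenes Tdg-ps, Gm5597 and Tdg-ps2. The Tdg-ps2 entry (Gm9855 in GENCODE) aligned to Tdg with 1185 of 1194 bases identical. One stretch of 120 bases of the coding sequence is shown for both, from bases 999 to 1118 of the Tdg transcript. It was picked because it holds differences, which are the 3 bases in capitals.
Tdg: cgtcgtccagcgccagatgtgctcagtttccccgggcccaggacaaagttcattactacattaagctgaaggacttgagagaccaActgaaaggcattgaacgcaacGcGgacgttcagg
Tdg-ps2: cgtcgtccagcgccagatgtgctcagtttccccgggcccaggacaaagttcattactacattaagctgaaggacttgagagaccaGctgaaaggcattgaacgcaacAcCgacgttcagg

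Tdg-ps2 was listed with 4106 and 4294 counts in siNT and 4110 and 4102 in siCnot1, whereas Tdg itself had 902 and 864 against 834 and 1032. Tdg-ps2 thus held 81.5% of the reads of the 4 genes summed and Tdg 17.8%. Read as 1 feature, the 4 genes gave 163 and 166 CPM in siNT and 149 and 154 in siCnot1. These sums did not overlap, with a log2 fold change of -0.11 (SE 0.0587, 95% interval -0.24 to 0.0070, adjusted p = 0.152 with edgeR). The values of Tdg are therefore uncertain. Dnmt3b shares 7.72% of such stretches with its paralog Dnmt3c (Dnmt3b-ps1 in the table, 9 to 26 counts) and Uhrf1 shares 11.3% with Gm5648 (99 to 121 counts). Summing them left Dnmt3b at -0.30 (adjusted p = 0.00193) and Uhrf1 at -0.12 (adjusted p = 0.103). The other 7 genes shared none.

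Zfp57, the imprint factor (chromosome 17, 37307060 to 37326196, plus strand), was at 485 and 514 CPM in siNT and at 556 and 544 in siCnot1. It was the only one of the 10 genes with both siCnot1 libraries above both siNT libraries. Its log2 fold change was 0.14 (SE 0.0543, 95% interval 0.026 to 0.25), and the adjusted p of 0.0580 missed the threshold. It passed with upper-quartile scaling (adjusted p = 0.0299), library totals (0.000865), a filter of 1 CPM in 2 libraries (0.0339) and limma-voom (0.0291). The exons listed for Zfp57 share 1788 bases with those of H2-M5 on the opposite strand, which had 3200 to 3538 counts and a log2 fold change of -0.15 (adjusted p = 0.0952 with edgeR). Since the strand setting of the counting is not given in the sources used here, reads from these genes cannot be told apart there.

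**Figure D2:**
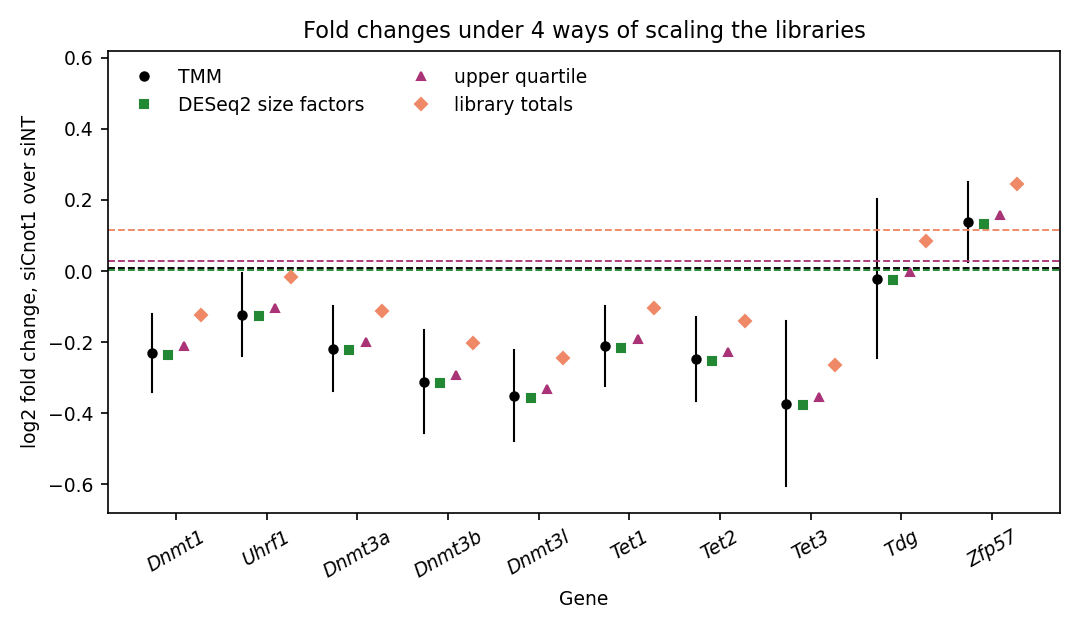
Log2 fold change of siCnot1 over siNT for each gene under 4 ways of scaling, with the 95% interval for TMM as a vertical line and the median of all genes tested under each scaling as a dashed line. With library totals the 10 genes shift upward along with the median of all genes (0.12), and among these scalings Tdg is above 0 only there.

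The calls rest on few libraries and on the scaling. When counts were scaled by library totals alone, the median log2 fold change of all genes moved from 0.0084 to 0.12 and that of the 10 genes from -0.22 to -0.12. Dnmt3b and Dnmt3l were then the only ones called lower, and Zfp57 was called higher. With 1 library left out, calls at an adjusted p under 0.05 remained for Dnmt3b and Tet2 without siNT replicate 1, for Dnmt3l without siNT replicate 2, for Dnmt3b, Dnmt3l and Tet2 without siCnot1 replicate 1, and for Dnmt1, Dnmt3l and Tet1 without siCnot1 replicate 2. In these refits 19 of 28 calls were lost, at adjusted p-values of 0.0561 to 0.183, while the log2 fold changes of the 7 called genes stayed between -0.46 and -0.18. The sign held in all 4 refits for 9 of the 10 genes, the exception being Tdg.

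Levels between genes were compared per exon length, as TPM from the counts and the exon lengths listed in the table. In siNT, Uhrf1 had the highest level at 410 ± 14.2 TPM (SD, n = 2), followed by Dnmt3l at 258 ± 17.1 and Dnmt1 at 212 ± 4.46 TPM. Tet1 (95.2 ± 4.72 TPM), Zfp57 (87.8 ± 4.85) and Tet2 (67.6 ± 3.87) came next, and Dnmt3b was at 37.1 ± 2.88 TPM. Tdg (19.5 ± 0.418 TPM), Dnmt3a (18.6 ± 0.0281) and Tet3 (4.41 ± 0.211) were lowest. The place of Tdg is uncertain, since reads of its near-identical copy Tdg-ps2 (110 and 117 TPM in siNT) may belong to either. The ranges of neighbours in this order did not overlap, although those of Tet1 (91.8 to 98.5 TPM) and Zfp57 (84.4 to 91.3 TPM) nearly met. The order depends on the length used: the exons listed for Zfp57 span 13909 bases, 5.36 times its longest coding transcript in GENCODE M21, and those of Dnmt3a 24591 bases, 2.54 times. With the transcript lengths Zfp57 was highest at 492 ± 27.5 TPM and Dnmt3a, at 49.4 ± 0.113 TPM, passed Tdg at 20.6 ± 0.426. TPM are scaled to each library's total and were used between genes only.

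The makeup of each family was compared between the groups. Tet1 held 56.9% of the summed TET level (TPM) in both siNT libraries and 56.8% and 58.6% in siCnot1. Tet2 held 40.2% and 40.6% in siNT and 40.7% and 39.2% in siCnot1, and Tet3 2.83% and 2.46% against 2.53% and 2.25%. The ranges of the groups overlapped for each TET gene. Dnmt3l held 83.5% and 81.0% of the DNMT3 sum in siNT and 81.0% and 82.0% in siCnot1. The share of Dnmt3a was 5.74% and 6.13% in the siNT libraries, against 6.57% and 6.31% in those of siCnot1, without overlap, at a two-sided exact permutation p of 0.333, the smallest that 2 against 2 libraries allow. Both DNMT3 shares use the listed exon lengths and depend on them. With the transcript lengths, the mean siNT share was 9.95% for Dnmt3a and 79.6% for Dnmt3l. Writers over erasers, the summed TPM of Dnmt1, Dnmt3a and Dnmt3b divided by that of the TET genes, was 1.63 and 1.58 in the siNT libraries, against 1.58 and 1.60 in those of siCnot1. These groups overlapped as well. Zfp57 over Dnmt1 was 0.404 and 0.424 in the siNT libraries, against 0.549 and 0.523 in those of siCnot1, without overlap (two-sided exact permutation p = 0.333). Since a gene's length is the same in every library, this 29.2% difference between the group means does not depend on the length used.

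**Figure D3:**
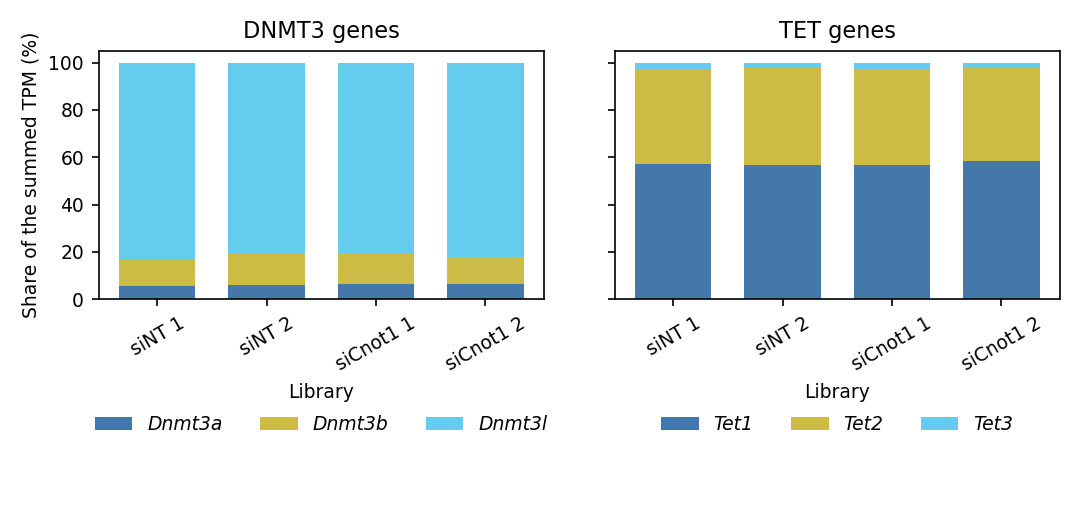
Share of the summed TPM of the DNMT3 genes (left) and TET genes (right) taken by each gene in each of the 4 libraries, in percent. With the listed exon lengths, Dnmt3l takes 81.0% to 83.5% of the DNMT3 sum and Tet1 56.8% to 58.6% of the TET sum in all libraries.

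The 3′ UTRs were then read for short elements through which CCR4-NOT is known to be recruited, since Pumilio proteins, AU-rich element binding proteins and miRNA complexes all bring this deadenylase to mRNAs. The longest 3′ UTR annotated in GENCODE M21 was searched on the transcript strand in each of the 10 genes and in the 13956 genes tested that have one. The miRNAs are shown with their seed (bases 2 to 8) in capitals, in the mature RefSeq sequences given with GRCm38. The first 2 belong to the miR-29 family, long known to target DNMT3 genes, TET genes and Tdg, the next 2 to families that are abundant in ESCs, and let-7 is a family that marks differentiation.
mmu-miR-29a-3p: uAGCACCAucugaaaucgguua
mmu-miR-29b-3p: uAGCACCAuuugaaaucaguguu
mmu-miR-294-3p: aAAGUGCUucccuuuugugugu
mmu-miR-302b-3p: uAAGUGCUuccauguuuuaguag
mmu-let-7a-5p: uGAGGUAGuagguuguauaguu

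The miR-29 seed match, TGGTGCT, was found 29 times in 6 of the 10 genes, against at least 1 match in 15.1% of all genes. Tet3 held 8 matches, the highest number in any of the 13956 genes and reached by 2 of them. Tet1 held 7, Tet2 and Dnmt3a 5 each, Tdg 3 and Dnmt3b 1. Only 68 genes, 0.487%, held 3 or more. Part of this goes with length, since 1259 of the 3999 genes with a 3′ UTR of at least 2000 bases had a match, and the UTRs of Tet1 (7962 bases), Dnmt3a (6696), Tet3 (5669), Tet2 (3058) and Tdg (2079) are all longer than the median of 1133 bases. One site of each gene is shown to let the match be read against the seed, with the match in capitals.
Dnmt3a, bases 1252 to 1258 of the 3′ UTR: caaaatgtacTGGTGCTttctgtctaa
Dnmt3b, bases 228 to 234: tagcccggcaTGGTGCTcatgttctct
Tet1, bases 417 to 423: acacagttccTGGTGCTttaaccacat
Tet2, bases 557 to 563: taacattaaaTGGTGCTacaaatggtg
Tet3, bases 4258 to 4264: cgcttttagtTGGTGCTaaacttctcc
Tdg, bases 957 to 963: gcattttccaTGGTGCTacagacagcc

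Matches were found both in genes that fell and in genes that were not called. Dnmt1 and Dnmt3l fell, and their 3′ UTRs of 312 and 273 bases held none of the elements searched. Tdg, with 3 miR-29 matches, was not called, and neither were Uhrf1 and Zfp57, whose 3′ UTRs of 984 and 114 bases held none of the elements. Over all genes, those with a miR-29 match had a median of 0.051 on the log2 scale, with 14.9% called lower, against 0.015 and 16.7% in those without. Among genes with a 3′ UTR of at least 2000 bases, the medians were close, at 0.054 with a match and 0.050 without. Of these long-UTR genes, 14.4% with a match and 15.5% without were called lower. The miR-294 and miR-302 match, AGCACTT, was found in the 3 TET genes alone (17% of all genes), and the let-7 match, CTACCTC, in Tet3 alone (10.4%). The Pumilio element TGTANATA was found in Dnmt3a and the 3 TET genes (25.5% of all genes), and the AU-rich element TATTTAT in these 4 and in Tdg (29.5%). These matches are a description of the letters, and no binding was measured here.

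**Figure D4:**
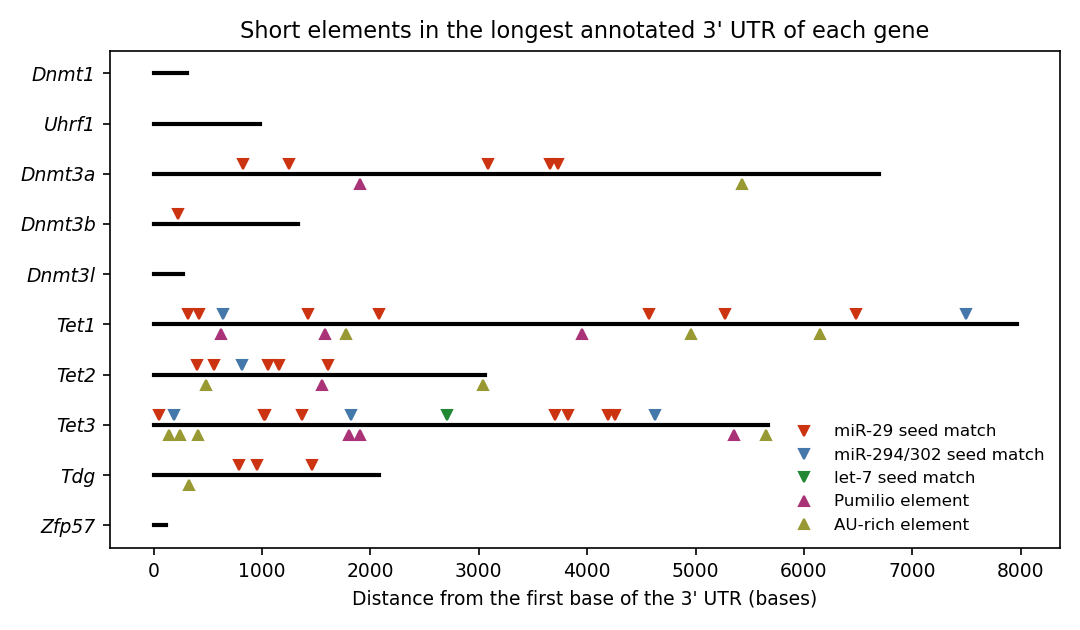
Position of each element in the longest annotated 3′ UTR of the 10 genes, as bases from its first base, with miRNA seed matches above the line and protein-binding elements below it. The elements lie in the TET genes, Dnmt3a, Dnmt3b and Tdg, with 8 miR-29 matches in Tet3 and none in Dnmt1, Uhrf1, Dnmt3l or Zfp57.

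Other genes of the pathway were described in 8 lists, with 95 distinct genes tested, of which 39 fell and 10 rose (median log2 fold change -0.13). Of all genes tested, edgeR called 14.7% lower and 15.0% higher. Among the 7747 genes of the expression range above it called 26.7% lower. The counts of each list are to be read beside these shares, and no set test was run. The partners of maintenance methylation were all below 0, and 6 of 9 fell (median -0.24). Cdca7, which brings the remodeler HELLS to chromatin, went from 276 and 285 CPM in siNT to 201 and 198 in siCnot1 (log2 fold change -0.49, adjusted p = 5.60e-07). Hells itself went from 711 and 778 CPM to 568 and 569 (-0.39, adjusted p = 1.18e-05). Cdca7 and Hells thus fell by 28.9% and 23.6%, more in value than Dnmt1, a difference between genes that was not tested.

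Of the genes listed as regulators of DNMT and TET genes or proteins, 6 of 15 fell and 2 rose (median -0.10). The 6 include Trdmt1, a relative of the DNMT enzymes that is described below. Prdm14, which represses Dnmt3a, Dnmt3b and Dnmt3l in naive ESCs, fell alongside these genes, from 55.7 and 54.9 CPM in siNT to 34.2 and 35.1 in siCnot1 (log2 fold change -0.67, adjusted p = 2.13e-06). Ehmt2, the H3K9 methyltransferase G9a, fell as well (-0.35, adjusted p = 0.000196). Nsd1, a H3K36 methyltransferase whose mark guides DNMT3A, rose from 374 and 389 CPM to 424 and 438 (log2 fold change 0.18, adjusted p = 0.0166), and Cxxc5, a CXXC protein linked to TET2, rose by 0.28 on the log2 scale (adjusted p = 0.0184). Cxxc4 had at most 4 counts and was not tested. Among genes related in family or role to one of the 10, 1 of 3 fell and 1 rose (median -0.13), and all 3 are counted in another list too. Trdmt1 (also called Dnmt2), a tRNA methyltransferase, went from 19.5 and 20.4 CPM to 12.6 and 13.7 (-0.60, adjusted p = 0.000372), and Zfp445, the other imprint zinc finger protein, rose from 132 and 135 CPM to 173 and 160 (0.32, adjusted p = 0.000340).

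Genes of base excision repair moved in both directions, with 6 of 17 lower and 4 higher (median 0.056). Ung, the uracil glycosylase, fell from 142 and 146 CPM to 106 and 110 (log2 fold change -0.42, adjusted p = 1.47e-05), and Parp1, the sensor of strand breaks, fell by 0.32 on the log2 scale (adjusted p = 7.30e-05). Smug1, another uracil glycosylase, rose from 17.3 and 14.0 CPM to 20.5 and 24.9 (0.53, adjusted p = 0.00214). Gadd45g, a stress-induced gene, rose from 3 and 9 counts to 52 and 41, a log2 fold change of 2.83 with a wide 95% interval of 1.62 to 4.04 (adjusted p = 0.000721). Its relatives Gadd45a (-0.52, adjusted p = 0.000221) and Gadd45b (-0.36, adjusted p = 0.00503) had more reads and fell.

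Of 10 genes tested from the methyl-CpG-binding domain and zinc finger families that include readers of methylated CpG, none fell and Zbtb38 rose (median 0.053). Zbtb38 went from 36.0 and 40.3 CPM in siNT to 51.3 and 51.4 in siCnot1 (log2 fold change 0.43, adjusted p = 0.000607). Of the KRAB zinc finger and TRIM28 silencing genes, with which ZFP57 acts, 4 of 12 fell and 2 rose (median -0.083). Trim28, the corepressor that ZFP57 binds, fell from 1792 and 1767 CPM to 1508 and 1560 (-0.21, adjusted p = 0.00258), and Cbx5, which encodes HP1 alpha, fell by 0.26 on the log2 scale (adjusted p = 0.00135). Besides Zfp445, Atf7ip, a partner of the methyltransferase SETDB1, rose (0.23, adjusted p = 0.0126).

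Of the genes of methyl donor metabolism, which make S-adenosylmethionine and clear its product, 7 of 15 fell and 1 rose (median -0.18). Tdh, the threonine dehydrogenase that feeds this cycle in mouse ESCs, fell from 192 and 198 CPM to 140 and 146 (log2 fold change -0.45, adjusted p = 3.68e-06). Ahcyl1, a relative of S-adenosylhomocysteine hydrolase, fell by 0.30 on the log2 scale (adjusted p = 0.000488), and Gldc of the glycine cleavage system rose (0.21, adjusted p = 0.0160). Nnmt had at most 15 counts and was not tested.

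The last list held germline genes known for silencing by promoter methylation, although some of them, such as Dazl, were well expressed in siNT. Whether their changes are tied to those of the 10 genes was not tested. Of 18 tested, 10 fell and none rose at an adjusted p under 0.05 (edgeR), 15 were below 0, and the median log2 fold change was -0.35. Piwil2 went from 66.1 and 68.4 CPM in siNT to 28.2 and 26.1 in siCnot1 (-1.31, adjusted p = 2.30e-10), and Dazl from 363 and 386 CPM to 219 and 209 (-0.81, adjusted p = 7.70e-10). The falls of Piwil2 and Dazl were larger in value than those of any of the 10 genes, a difference that was not tested. Whether their promoters were methylated was not measured here.

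**Figure D5:**
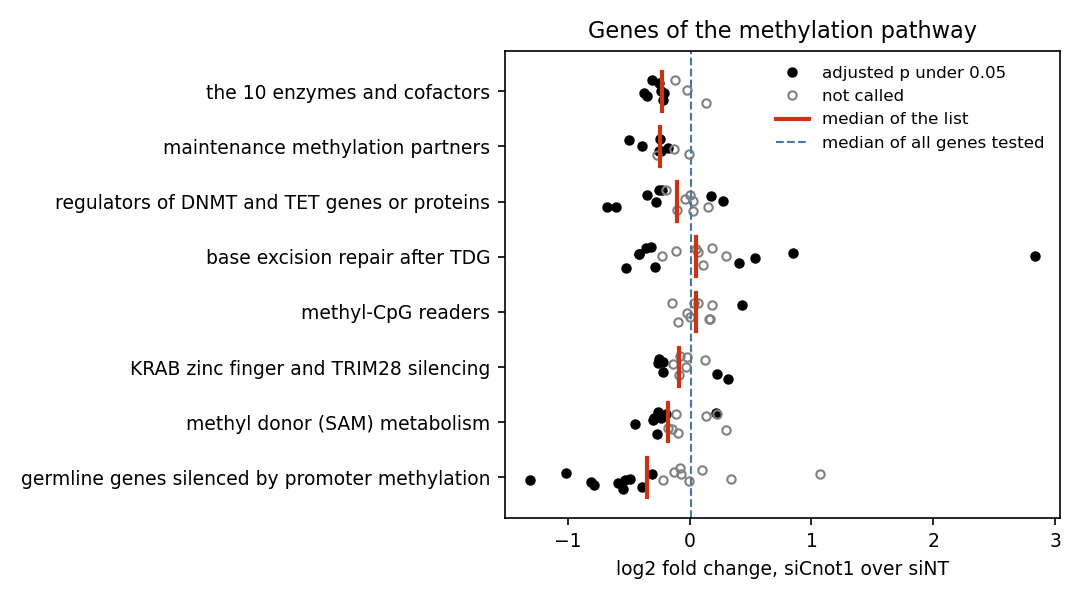
Log2 fold change of siCnot1 over siNT for each tested gene of the 10 and of 7 pathway lists, with called genes filled, the list median as a red line and the median of all genes tested as a dashed blue line. The lists of maintenance partners and germline genes have no called gene above 0, whereas base excision repair has called genes on both sides.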

How the data were processed

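RNA-seq counts per gene were deposited by the authors as raw whole numbers, without normalization and without pooling of replicates. Libraries were poly(A)+ and made with dUTP second strands. The submitters' processing notes name fastp 0.19.4, HISAT2 2.2.1, DESeq2 1.40.2 and mm10. However, only 2.00% of 48771 genes matched by symbol have the start and end of GRCm38 RefSeq, and the positions printed are as deposited and were read as GRCm39; none was converted. The counting program is not given in the sources used here.

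The test was edgeR 4.0.16's quasi-likelihood test in R 4.3.3, with TMM scaling, Benjamini-Hochberg adjustment and no term but condition. It ran on the 18144 of 50559 genes that filterByExpr kept at a minimum count of 10. The p-values rest on the spread between 2 libraries per group, with each gene's variance drawn toward a trend over all genes tested. Their precision therefore comes in large part from other genes. Normalized CPM are counts scaled to the TMM library size. SE is the ratio of the log2 fold change to the root of F. Totals of 32135824 to 32557440 counts put 3 counts at 0.0921 to 0.0934 CPM, which covers counting error only. Sequences came from GENCODE M21 transcripts, joined by gene name, and RefSeq, and alignments used Biopython 1.88.

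The 10 genes and the lists were chosen with earlier results of these data known. Named were the 10 genes, Cnot1 and, from each pathway list, the 2 called genes with the smallest adjusted p in each direction. Cxxc4, Nnmt, Col3a1, Dcn, Gadd45a, Gadd45b, H2-M5 and the copies were singled out later, with values in view. Other settings tried were size factors of DESeq2 1.42.0, upper-quartile scaling, library totals, no filter, 1 CPM in 2 libraries, DESeq2, limma-voom 3.58.1, a replicate block and each library left out. Fold changes with 1 library left out were planned without a test. Added after seeing the data were edgeR's test, and so the calls, on 3 libraries, sums with copies, transcript lengths and the expression range. Dnmt3c and Tet3os were not matched under these names. The Pearson correlation of deviations between same-numbered libraries was 0.0109, so the numbers were not taken as pairs.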

Additional observations from a re-analysis of the deposited data

How the results depend on the processing

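The 7 genes called lower were called under DESeq2 size factors, upper-quartile scaling, a filter of 1 CPM, DESeq2 and limma-voom. They were also the 7 called with the replicate block, which called 2431 genes lower and 2524 higher and changed no call of the 10. Without a filter on low counts Tet3 was lost (adjusted p = 0.0840 with edgeR). Library totals alone left 2 called lower, and 1 of the 10 was called higher under library totals, upper-quartile scaling, a filter of 1 CPM and limma-voom. Leaving out 1 library left 1 to 3 called lower; the lone library is then assumed to vary like the other group. Of all genes, 2668 were lower and 2719 higher, against 1563 lower under library totals, where 71.9% of calls were higher in place of 50.5%, 1450 lower and 1303 higher without a filter, and 871 to 1463 lower and 743 to 1439 higher with 1 library left out. Pathway list genes went from 39 lower and 10 higher to 25 and 17 under library totals, to 25 and 3 without a filter, and to 18 to 28 lower and 0 to 5 higher with 1 library left out. Tdg was above 0 under library totals (0.085), without siNT replicate 1 (0.010) and without siCnot1 replicate 1 (0.12), and ranged from -0.19 to 0.12 with 1 library left out.

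The share of Dnmt3a in the DNMT3 sum was higher by 0.508 percentage points in TPM, by 1.92 in CPM without length and by 0.815 with transcript lengths. The ratio of Zfp57 to Dnmt1 was higher by 0.121, 0.266 and 0.602 on these scales. The share of Tet1 in the TET sum differed by 0.742 percentage points and by -0.158 to 1.64 with 1 library left out. Counts of genes with each 3′ UTR element were the same with all annotated 3′ UTRs joined. The cause of these differences was not tested, except that the scales differ by the lengths that enter them. With 2 libraries per group, changes as small as those of Uhrf1 and Zfp57 lie near the limit of what could be called.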
